A study of Homo sapiens with 6 samples.

Results

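The well-expressed solute carriers of PC9 cells were compared between control cells and cells with RBM10 knockdown. The set was every gene row whose symbol begins with SLC, a family number, the letter A and a member number, with a mean estimated count of at least 100 over all 6 libraries. SLC7A11 was left out. Of 291 rows with such a symbol, 160 reached this mean and 131 did not, among 16306 genes in the table. These members were therefore chosen by their measured level over both groups together and not by the difference between the groups. Of the 160 rows, 155 were carriers by their full symbol, and 5 were genes named after a carrier (SLC2A4RG, SLC4A1AP, SLC7A6OS, SLC9A3R1 and SLC9A3R2). PC9 cells are a line from a human lung adenocarcinoma that carries an activating deletion in EGFR, and RBM10 is an RNA-binding protein that regulates splicing. RNA was sequenced from 6 PC9 samples, 3 of which carried a control shRNA (sh-NC) and 3 an shRNA against RBM10 (shRBM10), with no further treatment named in the labels. Which RBM10 shRNA was used is not named, so the 3 shRBM10 libraries may not share an shRNA, and no label says that the samples of a group came from separate cultures. The p-values thus measure the spread between these samples, which may be technical. The columns of the 3 sh-NC replicates and of shRBM10 library A matched a sample title, and those of libraries B and C matched only the group.

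Solute carriers are membrane proteins that move small molecules by facilitated diffusion or by coupling them to an ion gradient, without hydrolyzing ATP themselves. Families are numbered by sequence, and most members of a family share a kind of substrate: amino acids, sugars, metals, nucleotides or the metabolites that cross the inner mitochondrial membrane. Tumor cells of epithelial origin are known for high levels of the carriers for glucose, lactate, glutamine and large neutral amino acids.

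RBM10 itself had 1431, 1183 and 1469 normalized counts in the control replicates 1, 2 and 3, against 537, 515 and 672 in libraries A, B and C of shRBM10. Here a normalized count is the estimated count scaled to a common library size by TMM. All shRBM10 libraries lay below all sh-NC replicates, at a log2 fold change of -1.24 ± 0.23 (SE, n = 3 per group), with an adjusted p of 0.1 by edgeR's quasi-likelihood test and 0.00154 by DESeq2. When libraries were left out 1 at a time, edgeR's adjusted p for RBM10 ranged from 0.0487 without sh-NC replicate 2 to 0.454 without shRBM10 library A. The libraries held 16606390 to 18864243 counts each. Replicates 1 and 3 of sh-NC were close to each other (2.99 as chi-square over its degrees of freedom across genes), while all other pairs of libraries differed by 31 or more. The deviation of genes from their mean went with GC content in every library, positively in sh-NC (Spearman's rho across genes of 0.43, 0.39 and 0.46) and in library C (0.51), and negatively in libraries A and B (-0.74 and -0.67). Library C therefore stood nearer to sh-NC than libraries A and B did, and values after removal of the trend of each library on GC content are given beside many of the results. For RBM10 the log2 fold change after that removal was -0.97 (edgeR adjusted p = 0.0981), still without overlap of the groups. The epithelial keratin and adhesion markers summed to 32300 to 40900 CPM in sh-NC against 25800 to 36600 in shRBM10. Fibroblast markers (2.36 to 7.35 and 6.38 to 11.4, DCN and LUM not detected), leukocyte markers (1.41 to 1.65 and 1.47 to 2.2, CD3E and MS4A1 not detected) and endothelial markers (4.01 to 11 and 2.89 to 3.92) were low. Of the retina markers, looked at because the labels' extraction protocol mentions that tissue, RCVRN, GNAT1 and SAG were not detected, and the sum was 0 to 0.0697 in sh-NC against 0.163 to 0.216 in shRBM10.

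By level per kilobase of transcript, mitochondrial carriers and amino acid carriers led the set in both groups. The highest was SLC25A5, an ADP/ATP exchanger of the inner mitochondrial membrane, with a mean of 20200 normalized counts per kilobase in sh-NC against 14600 in shRBM10. SLC25A3, the mitochondrial phosphate carrier, followed with 11200 and 7840. SLC3A2, the heavy chain that carries several amino acid transporters to the surface, had 9090 and 4820, above SLC1A5, the glutamine and neutral amino acid exchanger, with 6640 and 4270. SLC25A6, a close paralog of SLC25A5, came after SLC1A5 in sh-NC, at 5640, and before it in shRBM10, at 4690, where the ranges of SLC3A2, SLC25A6 and SLC1A5 over libraries overlapped. How reads shared by such paralogs were counted is not given in the sources used here. SLC7A5, the large neutral amino acid transporter that pairs with SLC3A2, had 4670 and 2370, and SLC2A1, the main glucose transporter of proliferating cells, had 2920 and 2550. Mitochondrial carriers made up 42.0% of the summed level per kilobase of the members in sh-NC and 39.1% in shRBM10, and amino acid carriers 23.2% and 20.4%.

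**Figure D1:**
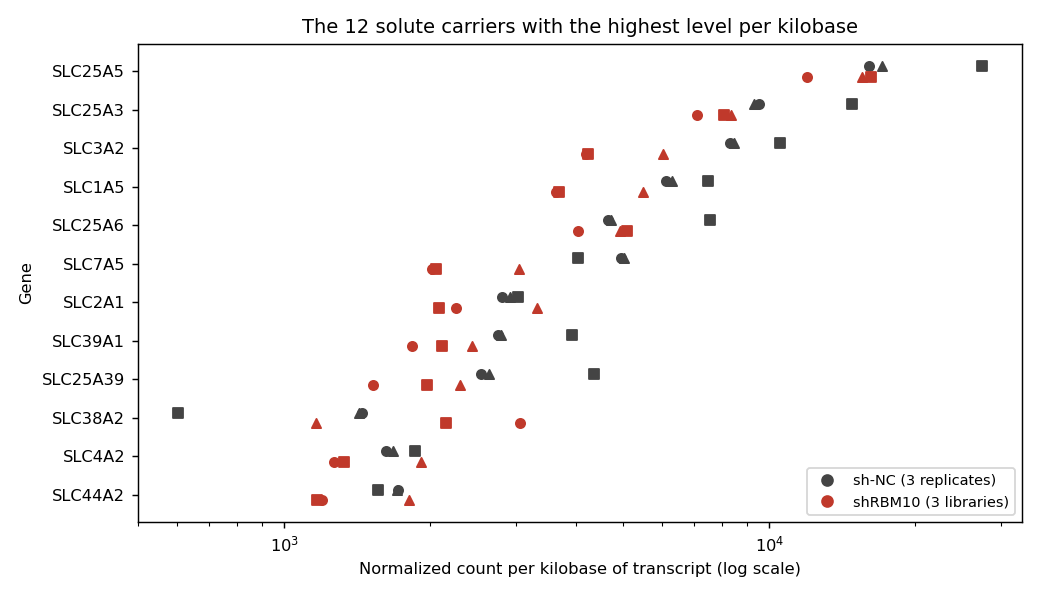
Normalized count per kilobase of transcript (log scale) of the 12 members with the highest mean level, per library (grey, sh-NC; red, shRBM10; circle, square and triangle stand for replicates 1 to 3 or libraries A to C and pair nothing). SLC25A5 is highest, and for SLC3A2, SLC1A5 and SLC7A5 the 3 red points lie below the 3 grey points.

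The median of the solute carriers lay near 0 and near that of all genes. Of the 160 members, 74 were higher in shRBM10 and 86 lower, and the median log2 fold change was -0.03 (quartiles -0.37 and 0.52), against 0.03 over the 12620 genes tested and -0.04 over the 10090 genes with a mean count of at least 100. Their share of all counts was 1.09% to 1.41% in sh-NC against 1.13% to 1.27% in shRBM10. Scaling by library size only, which moved the median of all genes to 0.16, turned the sign of the members' median, to 0.09 with 94 members higher. In bulk RNA, fewer cells that express a gene and less of its RNA per cell cannot be told apart.

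With edgeR's quasi-likelihood test, 0 of the 160 members were called, that is, had an adjusted p under 0.05 with a log2 fold change beyond 1 in either direction. Over all genes the share called was 0.0158%, and the lowest adjusted p of a member was 0.126. At an unadjusted p under 0.05, 44 members (27.5%) passed, against 24.3% of all genes. With the fold change limit added, 12 members (7.5%) were higher in shRBM10, against 10.1% of all genes, and 4 (2.5%) were lower, against 1.53%. With the GC trend removed, 1 member was past these limits in each direction. DESeq2 called 11 members (6.88%), 8 higher and 3 lower, against 4.72% of the genes it tested. The 3 shRBM10 libraries all lay above the 3 sh-NC replicates for 25 members (15.6%) and all below for 32 (20%), against 13.8% and 16.2% of all genes. No test of the set as a whole was made, and the members are described by class. Without library A the members past the unadjusted limits numbered 4 higher and 1 lower, and without library C 9 were lower. Without library C the groups did not overlap for 49 higher and 69 lower members, and without sh-NC replicate 2 for 54 lower members.

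Among the 22 amino acid carriers, those with the highest level per kilobase, SLC3A2, SLC1A5 and SLC7A5, had lower values in shRBM10 with no overlap of the groups. With edgeR 0 of the class passed the adjusted test and 6 had an unadjusted p under 0.05 (24.3% of all genes), while DESeq2 called 2. The median log2 fold change of the class was -0.12 and was the same with the GC trend removed. Groups did not overlap for 7 members that were lower, against 16.2% of all genes, and for 1 that was higher, against 13.8%.

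SLC7A5, which takes up leucine and other large neutral amino acids, had 21073, 17166 and 21417 normalized counts in sh-NC against 8570, 8768 and 13011 in shRBM10. SLC3A2, its heavy chain, had 16916, 21456 and 17209 in sh-NC against 8520, 8636 and 12332 in shRBM10. Together the proteins form a single transporter, and in both genes the 3 shRBM10 libraries lay below every sh-NC replicate, with library C the highest of the 3. The log2 fold change was -0.98 ± 0.28 for SLC7A5 (adjusted p = 0.153, edgeR) and -0.91 ± 0.27 for SLC3A2 (adjusted p = 0.153, edgeR). With the GC trend removed they were -0.71 and -0.67, at unadjusted p of 0.00824 and 0.00581 by edgeR.

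SLC1A5, which exchanges glutamine for other neutral amino acids, had 11955, 14574 and 12319 normalized counts in sh-NC against 7075, 7190 and 10730 in shRBM10. Its relative SLC1A4, which carries alanine, serine and cysteine, had 1075, 875 and 1068 in sh-NC against 403, 371 and 596 in shRBM10. Neither gene's groups overlapped. SLC1A4 was among the 4 members past the unadjusted limits in the lower direction (-1.14 ± 0.26, edgeR adjusted p = 0.13, DESeq2 adjusted p = 0.0125), and it kept -0.97 with the GC trend removed. SLC1A5 differed less, by -0.64 ± 0.27 (edgeR adjusted p = 0.192), and by -0.40 with the GC trend removed.

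SLC43A1, a uniporter of branched-chain and aromatic amino acids, was much less abundant, with 160, 174 and 165 normalized counts in sh-NC against 58.5, 69.9 and 98 in shRBM10. All shRBM10 values lay below sh-NC (-1.14 ± 0.30, edgeR adjusted p = 0.146, DESeq2 adjusted p = 0.0291), and the value was -0.91 with the GC trend removed. Its mean count in shRBM10 was under 100, so it met the rule for members only through sh-NC, the group where it is high. SLC6A17 (-0.67), a vesicular neutral amino acid carrier, and SLC6A9 (-0.54), a glycine transporter, were the other members whose groups did not overlap in the lower direction, but their groups overlapped once the GC trend was removed.

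The sodium-coupled system A transporters lay on the other side. SLC38A1 had 1808, 945 and 1721 normalized counts in sh-NC against 4909, 3402 and 1376 in shRBM10, and SLC38A2 had 4058, 1691 and 3993 and then 8568, 6027 and 3262. In both, libraries A and B were above all sh-NC replicates and library C was below replicates 1 and 3. SLC38A1 passed the unadjusted limits (1.11 ± 0.43, edgeR adjusted p = 0.177), SLC38A2 did not (0.87 ± 0.41, edgeR adjusted p = 0.22), and with the GC trend removed the values were 0.41 and 0.13. SLC6A6, the taurine transporter, was the single amino acid member whose shRBM10 libraries were all higher, with 2548, 1415 and 2708 in sh-NC against 3063, 2739 and 3501 in shRBM10. Its log2 fold change of 0.48 ± 0.28 (edgeR adjusted p = 0.291) was 0.16 without sh-NC replicate 2.

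**Figure D2:**
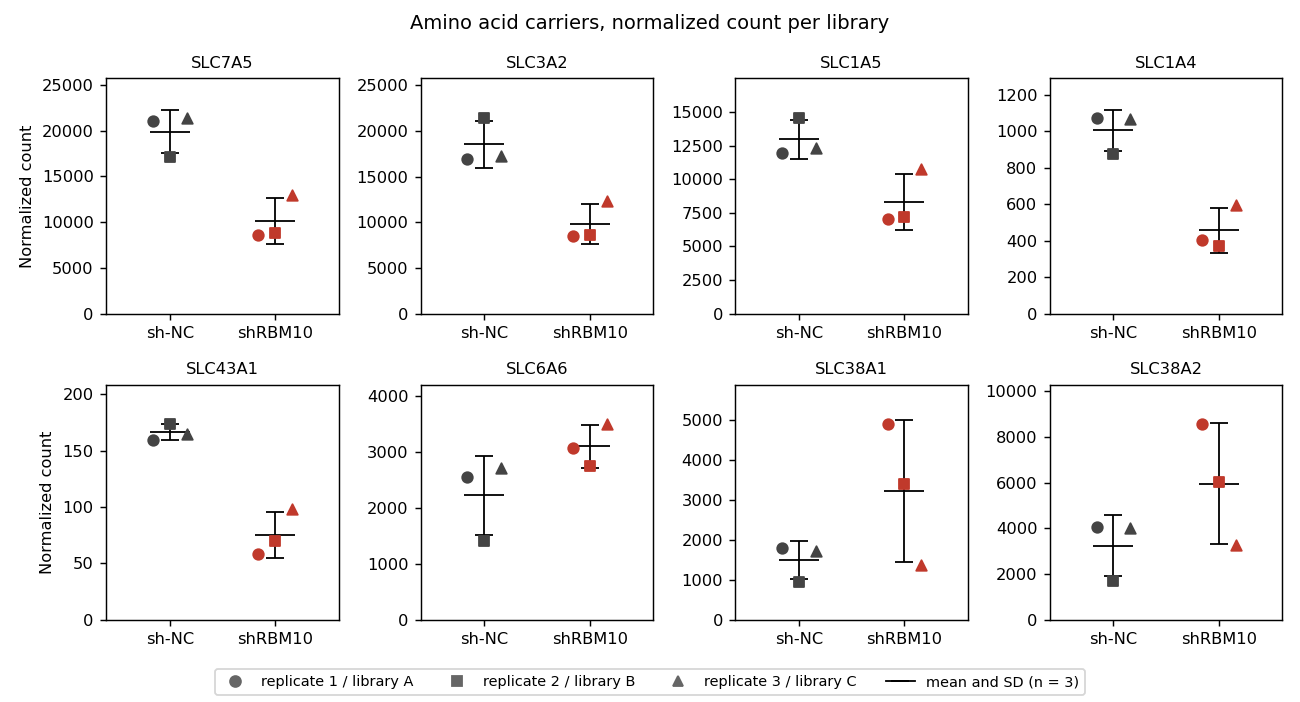
Normalized count of 8 amino acid carriers in each library, with the mean and SD of each group (n = 3); marker shapes name the replicate or library and pair nothing. For SLC7A5, SLC3A2, SLC1A5, SLC1A4 and SLC43A1 all red points lie below the grey ones with library C (triangle) the highest of the red, and for SLC38A1 and SLC38A2 library C is the lowest of the red.

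Several amino acid carriers are known targets of ATF4, the transcription factor of the amino acid and stress response. The RNA of ATF4 itself and of other genes of that response was therefore read from the same fit. All 10 genes of a hand-written list (ATF4, ASNS, CHAC1, TRIB3, DDIT3, PSAT1, PHGDH, SESN2, DDIT4 and CEBPB) had a log2 fold change below 0, with a median of -0.60, and -0.44 with the GC trend removed, where CEBPB was at 0.11. With edgeR 0 of the 10 passed both unadjusted limits, 4 had an unadjusted p under 0.05 (24.3% of all genes did), and DESeq2 called 0. Groups did not overlap for 6 of them, ATF4 itself included, all lower, against 16.2% of all genes. With the GC trend removed the groups of ATF4 (-0.38) and CHAC1 (-0.16) overlapped, while those of ASNS and PSAT1 no longer did, with shRBM10 lower. For CEBPB they no longer did either, with shRBM10 higher. ASNS, asparagine synthetase, had 8848, 21103 and 8974 normalized counts in sh-NC against 9164, 8449 and 8129 in shRBM10, so its value of -0.60 ± 0.36 came mostly from sh-NC replicate 2 and was -0.14 without it. Without that replicate DDIT3 turned to 0.08, and PSAT1 was at -0.03, CEBPB at -0.26, CHAC1 at -0.32 and ATF4 at -0.33. The others listed were at -0.61 (DDIT4), -0.64 (PHGDH), -0.87 (TRIB3) and -1.08 (SESN2) without it. SESN2, a leucine sensor, had 1846, 1454 and 1797 in sh-NC against 794, 742 and 1188 in shRBM10 (-0.90 ± 0.25, edgeR adjusted p = 0.153).

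The letters TGATGNAA, the core of the element that ATF4 and C/EBP factors share, were searched on both strands of the RefSeq promoter windows (GRCh38.p14, 250 bases before to 50 after each start). Windows were matched by gene ID for 132 of the 160 members and for 21 of the 22 amino acid carriers. The letters stood in a window of 10 members (7.58%), against 4.46% of all 27305 genes with a window, and in 6 of the 21 amino acid carriers (28.6%). A gene can have several windows. Counted by window, the shares were 5.03% for members, 3.62% for all genes and 16.7% for amino acid carriers. The sequences of the 6 amino acid carriers are shown because they hold the letters beside members on both sides of the comparison. They are given on the gene's strand with the matching bases, or their reverse complement, in capitals.
SLC1A4 at chr2:64989382-64989409 (+ strand, the match ends on the first transcribed base): cggctcccgtTTGCATCAtctccagccg
SLC1A5 at chr19:46784894-46784921 (- strand, 97 to 90 bases before 1 of its 3 starts): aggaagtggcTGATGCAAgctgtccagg
SLC3A2 at chr11:62881726-62881748 (+ strand, bases 38 to 45 after 1 of its 3 starts): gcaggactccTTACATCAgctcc
SLC7A1 at chr13:29595664-29595691 (- strand, bases 8 to 15 after its start): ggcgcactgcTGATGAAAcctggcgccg
SLC38A1 at chr12:46266503-46266530 (- strand, across 1 of its 2 starts): cagacccgaaTGATGAAAagggatcagc
SLC1A3 at chr5:36596358-36596385 (+ strand, 220 to 213 bases before 1 of its 3 starts): aggaaatgacTGATGCAAagcagggtta
SLC1A4, SLC1A5 and SLC3A2 are 3 of the lower members above, SLC38A1 was higher in 2 of 3 shRBM10 libraries, and the groups overlapped for SLC7A1, a cationic amino acid transporter (-0.47), and SLC1A3, a glutamate transporter (0.57). A match is a description of letters. SLC7A5 and SLC43A1 had none in their windows.

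The 34 mitochondrial carriers of family 25 leaned lower, with 23 lower and 11 higher, a median of -0.21 and -0.20 with the GC trend removed. Without sh-NC replicate 2 the class median was -0.14. Groups did not overlap for 9 lower members (16.2% of all genes) and 2 higher ones (13.8% of all genes). SLC25A15, the ornithine carrier of the urea cycle, had 312, 334 and 342 normalized counts in sh-NC against 233, 180 and 191 in shRBM10 (-0.71 ± 0.26, edgeR adjusted p = 0.17). For it all shRBM10 libraries were lower, and the GC trend made no difference to that, with a value of -0.73 after its removal.

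SLC25A39, a carrier needed for mitochondrial glutathione, had 3928, 6703 and 4083 normalized counts in sh-NC against 2350, 3034 and 3543 in shRBM10 (-0.72 ± 0.28, edgeR adjusted p = 0.178). SLC25A33, a pyrimidine nucleotide carrier, was at -0.54 ± 0.26 and reached -0.86 with the GC trend removed. The phosphate carrier SLC25A3 (-0.52 ± 0.28), the dicarboxylate carrier SLC25A10 (-0.57), the ATP-magnesium and phosphate carrier SLC25A25 (-0.49), SLC25A38, which is needed for heme synthesis (-0.35), and SLC25A45 (-0.20) were also lower without overlap. With the GC trend removed the groups of SLC25A38 (-0.28) and SLC25A45 (0.08) overlapped. Sh-NC replicate 2 was the highest library for SLC25A1, SLC25A3, SLC25A5, SLC25A6, SLC25A10, SLC25A11 and SLC25A39. SLC25A3 had 12939, 20103 and 12653 in sh-NC against 9652, 10983 and 11315 in shRBM10. SLC25A5 had 20479, 35034 and 21751 in sh-NC against 15219, 20702 and 19765 in shRBM10, which overlapped, and its log2 fold change of -0.47 was -0.26 without that replicate. SLC25A6 was at -0.27 and turned to 0.10 with the GC trend removed.

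SLC25A24, another ATP-magnesium and phosphate carrier, was higher, with 313, 226 and 311 normalized counts in sh-NC against 898, 703 and 340 in shRBM10. Library C lay just above the sh-NC values and libraries A and B far above them. The log2 fold change was 1.19 ± 0.36 (edgeR adjusted p = 0.153, DESeq2 adjusted p = 0.0424), and 0.40 with the GC trend removed. SLC25A36, a pyrimidine nucleotide carrier, passed the unadjusted limits (1.31 ± 0.48, edgeR adjusted p = 0.172), but its library C, at 177, lay within the sh-NC range of 86.3 to 201. It was at 0.57 with the GC trend removed. SLC25A46, an outer membrane protein of mitochondrial dynamics, did not overlap (0.68), and was at -0.06 with the GC trend removed. SLC25A32, a folate and FAD carrier, overlapped between the groups at -0.40 and was at -1.13 without overlap after that removal.

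Listed mitochondrial transport genes that do not carry an SLC25 symbol had lower values too, though MTCH1 and MTCH2 are themselves relatives of that family. All 10 listed genes (MPC1, MPC2, VDAC1, VDAC2, VDAC3, MCU, MTCH1, MTCH2, TIMM22 and TSPO) were below 0, with a median of -0.42 and -0.80 with the GC trend removed. Groups did not overlap for 3 of them (VDAC2, MTCH1 and TIMM22), where the share over all genes was 16.2% in this direction. With edgeR 0 passed both unadjusted limits, 2 had an unadjusted p under 0.05, against 24.3% of all genes, and DESeq2 called 0. Sh-NC replicate 2 was the highest of all libraries for each of these 10 genes. For MCU, the pore of the calcium uniporter, the counts were 797, 1764 and 849 in sh-NC against 803, 617 and 619 in shRBM10, and the log2 fold change of -0.74 was -0.36 without that replicate.

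Zinc carriers leaned higher, with 12 of 15 above 0 and a median of 0.36, but the median was 0.00 with the GC trend removed. All 5 members of family 30, which moves zinc out of the cytosol, were above 0 (0.27 to 0.99), and with the GC trend removed SLC30A1, SLC30A6 and SLC30A7 were below 0. SLC39A6, a surface zinc importer, had 234, 142 and 255 normalized counts in sh-NC against 815, 590 and 314 in shRBM10. Its log2 fold change of 1.44 ± 0.38 (edgeR adjusted p = 0.149, DESeq2 adjusted p = 0.0168) was the largest of any member without overlap, and it was 0.91 with the GC trend removed. SLC39A11, a zinc importer, had 1079, 1464 and 1157 in sh-NC against 1969, 1978 and 1928 in shRBM10. Its 3 shRBM10 libraries lay close together, and its value of 0.67 ± 0.22 (edgeR adjusted p = 0.156) was 0.65 with the GC trend removed. SLC30A5 also did not overlap (0.57), and was at 0.00 after that removal. SLC39A1, the most abundant zinc carrier, had 6396, 9109 and 6508 in sh-NC against 4261, 4905 and 5651 in shRBM10 (-0.57 ± 0.25, edgeR adjusted p = 0.199), and SLC39A4, the intestinal importer, was lower in the same way (-0.48). With the GC trend removed SLC39A1 was at -0.33 without overlap and SLC39A4 at -0.12 with overlap.

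Of the 9 carriers of iron, copper, magnesium and heme, with edgeR 0 passed the adjusted test and 5 had an unadjusted p under 0.05 (24.3% of all genes), while DESeq2 called 1, SLC40A1. SLC40A1, ferroportin, the iron exporter, had 153, 155 and 157 normalized counts in sh-NC against 395, 379 and 276 in shRBM10. The sh-NC values were nearly equal, and every shRBM10 library was at least 1.76 times the highest of them. The log2 fold change was 1.17 ± 0.27 (edgeR adjusted p = 0.134, DESeq2 adjusted p = 0.00932), and 0.57 with the GC trend removed. SLC11A2, a proton-coupled iron importer, had 625, 898 and 691 in sh-NC against 1326, 1086 and 999 in shRBM10 (0.62 ± 0.24, edgeR adjusted p = 0.176), and was at 0.14, with overlapping groups, once the GC trend was removed. The copper carriers SLC31A2 (0.59, no overlap) and SLC31A1 (0.65, overlap) were above 0. With the GC trend removed they were at 0.45 and 0.10, both with overlap. SLC48A1, which moves heme out of endosomes, had 1574, 1408 and 1570 in sh-NC against 814, 871 and 1093 in shRBM10. Its groups did not overlap, at -0.71 ± 0.22 (edgeR adjusted p = 0.155) and -0.47 with the GC trend removed.

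Of 10 detected genes of metal homeostasis outside the family, 7 were above 0 and 3 below, with a median of 0.46 (0.29 with the GC trend removed). MT1E and MT1G were not detected. ATP7A, the copper-exporting ATPase, passed the unadjusted limits, with 119, 27.4 and 103 normalized counts in sh-NC against 505, 332 and 134 in shRBM10 (1.95 ± 0.58, edgeR adjusted p = 0.153). IREB2, an RNA-binding regulator of iron genes, also passed them, at 1.14 ± 0.50 (edgeR adjusted p = 0.2), but its library C, at 218, lay within the sh-NC range of 107 to 312. Over all genes 10.1% were past these limits in the higher direction. With the GC trend removed ATP7A was at 1.27 without overlap and IREB2 at 0.36 with overlap. TFRC, the transferrin receptor, was at 0.95 and the ferritin chains FTH1 and FTL at 0.12 and 0.31, all with overlap. With the GC trend removed TFRC was at 0.20, FTH1 at 0.22 and FTL at 0.54, still with overlap.

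SLC46A3, a lysosomal carrier of uncertain substrate, had the smallest p of all members. It had 99.8, 140 and 132 normalized counts in sh-NC against 304, 312 and 296 in shRBM10, a ratio of means of 2.46. Each of the 3 shRBM10 libraries, library C included, lay at 2.12 times the highest sh-NC value or more. The log2 fold change was 1.30 ± 0.27 (edgeR adjusted p = 0.126, DESeq2 adjusted p = 0.00301), and 0.76 with the GC trend removed.

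SLC44A1, the main choline transporter, had 704, 575 and 750 normalized counts in sh-NC against 2091, 1660 and 1154 in shRBM10 (1.27 ± 0.27, edgeR adjusted p = 0.127, DESeq2 adjusted p = 0.00592), and 0.54 with the GC trend removed. The other 9 members of the vitamin and choline class did not pass the unadjusted limits, and the class median was -0.08 (0.00 with the GC trend removed). SLC19A1, the reduced folate carrier, had 219, 236 and 219 in sh-NC against 129, 127 and 168 in shRBM10 (-0.66 ± 0.27, edgeR adjusted p = 0.186), and SLC52A2, a riboflavin transporter, was at -0.63 ± 0.26 (edgeR adjusted p = 0.19). Neither overlapped between the groups. SLC19A2, a thiamine transporter, was at 0.78 with library C, at 142, inside the sh-NC range of 123 to 147. With the GC trend removed SLC19A2 was at 0.05, SLC19A1 at -0.32 and SLC52A2 at -0.31.

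Of the 7 carriers of organic ions, 6 were above 0, with a median of 0.51 and 0.46 with the GC trend removed. The median was 0.21 without sh-NC replicate 2. SLC22A15, of the organic cation and anion family, had 147, 97.2 and 153 normalized counts in sh-NC against 384, 249 and 176 in shRBM10 (1.02 ± 0.36, edgeR adjusted p = 0.167). It was at 0.69 with the GC trend removed. SLC22A31 had 105, 105 and 101 in sh-NC against 147, 157 and 196 in shRBM10 (0.68 ± 0.27, edgeR adjusted p = 0.183). It is rich in GC (67.8%), and its value grew to 1.04 with the GC trend removed, past the unadjusted limits on that scale. SLC10A3 was the lower member of the class (-0.57, no overlap).

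The class of SLC35A members, nucleotide sugar carriers of the Golgi, and SLC33A1 had the highest median, 0.61 over 6 members. It was 0.13 with the GC trend removed. SLC35 relatives with the letters B to D, which the symbol rule leaves out, lay on both sides of 0. Their values were 0.85 (SLC35B3), 0.86 (SLC35D1), 0.15 (SLC35B4), 0.01 (SLC35C1), -0.22 (SLC35B2), -0.23 (SLC35D2), -0.30 (SLC35C2) and -0.51 (SLC35B1). SLC35A5 had 311, 268 and 326 normalized counts in sh-NC against 830, 712 and 385 in shRBM10 (1.09 ± 0.31, edgeR adjusted p = 0.153, DESeq2 adjusted p = 0.0402). SLC35A1, the CMP-sialic acid transporter, had 101, 160 and 92.9 in sh-NC against 277, 262 and 173 in shRBM10 (1.01 ± 0.33, edgeR adjusted p = 0.158). SLC33A1, the acetyl-CoA transporter of the endoplasmic reticulum, was at 0.66 without overlap, and SLC35A4 at -0.35 without overlap. With the GC trend removed SLC35A5 was at 0.31, SLC35A1 at 0.24, SLC33A1 at 0.01 and SLC35A4 at -0.15. On that scale the groups overlapped for each of these except SLC35A5.

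**Figure D3:**
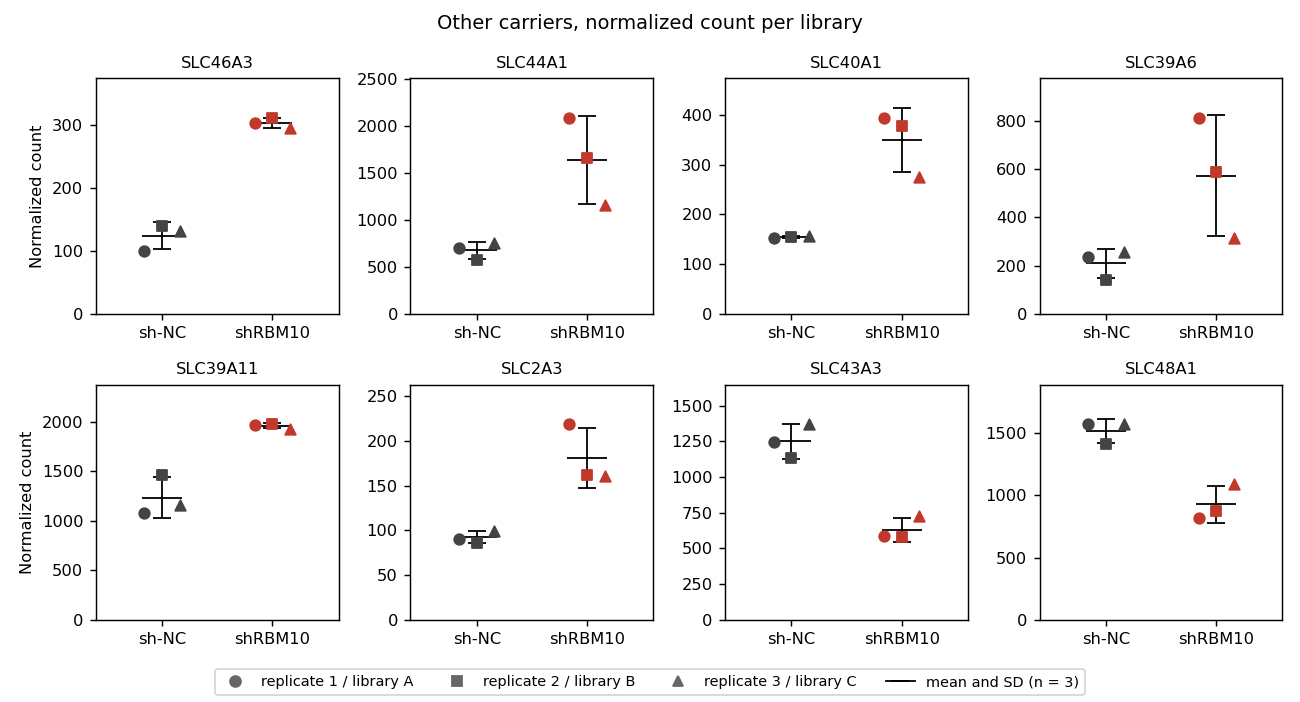
Normalized count of 8 members outside the amino acid class in each library, with the mean and SD of each group (n = 3); marker shapes name the replicate or library and pair nothing. SLC46A3, SLC44A1, SLC40A1, SLC39A6, SLC39A11 and SLC2A3 have all red points above the grey ones, and SLC43A3 and SLC48A1 all below.

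Glucose and lactate carriers are the other textbook tumor carriers. SLC2A1, the main glucose transporter, had 5919, 6391 and 6149 normalized counts in sh-NC against 4752, 4381 and 6975 in shRBM10. The sh-NC values lay inside the shRBM10 range, at -0.20 ± 0.25 (edgeR adjusted p = 0.62). SLC2A3, a high-affinity glucose transporter at a much lower level per kilobase (23.5 in sh-NC and 46.1 in shRBM10), had 90.7, 86.3 and 99.3 in sh-NC against 219, 162 and 161 in shRBM10. All 3 shRBM10 libraries were higher (0.97 ± 0.28, edgeR adjusted p = 0.153), and the value was 0.63 with the GC trend removed. Its mean count in sh-NC was under 100, so that shRBM10, where it is high, brought it into the set. SLC2A8, an intracellular hexose transporter, was lower without overlap (-0.71), as were SLC37A4, the glucose 6-phosphate translocase (-0.58), and SLC37A2 (-0.47). The groups of SLC37A2 overlapped, at -0.25, with the GC trend removed. SLC37A3, of the same family, was higher without overlap (0.66). The median over the 13 sugar carriers was -0.19, and 0.10 with the GC trend removed.

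SLC16A3, the lactate exporter, had 2386, 2466 and 2442 normalized counts in sh-NC against 1614, 1624 and 2309 in shRBM10. The groups did not overlap (-0.40 ± 0.23, edgeR adjusted p = 0.286), but with the GC trend removed they did, at -0.07. SLC16A1, which carries lactate in both directions, had 733, 1378 and 808 in sh-NC against 2591, 1767 and 819 in shRBM10 (0.83 ± 0.41, edgeR adjusted p = 0.23), with library C inside the sh-NC range. With the GC trend removed SLC16A1 was at 0.09. SLC16A4, a monocarboxylate carrier, had 893, 1405 and 872 in sh-NC against 2877, 2413 and 1438 in shRBM10 (1.09 ± 0.31, edgeR adjusted p = 0.153, DESeq2 adjusted p = 0.0397), and 0.29 with the GC trend removed. BSG, the chaperone of the lactate carriers, had 17361, 24307 and 18157 in sh-NC against 11071, 13296 and 17135 in shRBM10 (-0.53 ± 0.28, edgeR adjusted p = 0.264). Of 6 chaperone and sodium pump genes, 5 were below 0, and ATP1B1, a pump beta subunit, was higher without overlap (0.70). Of 5 genes of glucose uptake control, 3 were above 0 and HIF1A passed the unadjusted limits (1.24 ± 0.46, edgeR adjusted p = 0.172) with library C, at 1208, inside the sh-NC range of 389 to 1249. Over all genes 10.1% were past these limits in the higher direction. With the GC trend removed HIF1A was at 0.53. TXNIP, which lowers glucose uptake, was at 0.08, and at -0.33 with the GC trend removed.

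The 17 carriers of protons, sodium, potassium, chloride, bicarbonate and calcium had a median of -0.01 (0.12 with the GC trend removed), and with edgeR 0 had an unadjusted p under 0.05, nor did DESeq2 call any. SLC9A7, a proton exchanger of the Golgi (0.61), and SLC24A1, a calcium exchanger (0.67), were among the members higher in shRBM10 without overlap. With the GC trend removed they were at 0.37 and 0.68, and the groups of SLC9A7 overlapped. SLC12A2, the sodium, potassium and chloride importer, ranged from 30.1 to 211 in sh-NC and from 177 to 422 in shRBM10. Its value of 1.15 ± 0.60 (edgeR adjusted p = 0.248) was 0.60 without sh-NC replicate 2. Among 9 regulators of carrier trafficking, 6 were above 0 and 3 below. PRKAA1, a catalytic subunit of AMP-activated kinase, passed the unadjusted limits (1.23 ± 0.38, edgeR adjusted p = 0.155), as 10.1% of all genes did in the higher direction. SGK1, a kinase that raises sodium transport, was lower without overlap (-0.80 ± 0.25, edgeR adjusted p = 0.156). With the GC trend removed PRKAA1 was at 0.45 and SGK1 at -1.11, both without overlap.

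SLC26A2, the sulfate transporter, had the largest log2 fold change of all members and the widest spread. It had 325, 69.8 and 282 normalized counts in sh-NC against 1264, 689 and 268 in shRBM10, so that library C lay below sh-NC replicates 1 and 3. The value of 1.71 ± 0.62 (edgeR adjusted p = 0.17, DESeq2 adjusted p = 0.0453) ranged from 1.08 to 2.06 with each library left out in turn and was 0.91 with the GC trend removed. SLC20A1, a phosphate importer, was higher in all shRBM10 libraries by 0.29, and was at 0.06, with overlap, once the GC trend was removed.

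SLC43A3, a purine nucleobase transporter, was the lowest of the 4 nucleoside and base carriers, with 1246, 1131 and 1373 normalized counts in sh-NC against 585, 577 and 726 in shRBM10. The log2 fold change was -0.99 ± 0.22 (edgeR adjusted p = 0.13, DESeq2 adjusted p = 0.0153) and -0.88 with the GC trend removed, at an unadjusted p of 0.00067 by edgeR. The nucleoside transporters SLC29A1, SLC29A2 and SLC29A3 overlapped (-0.28 to -0.06). Of the 5 fatty acid transport proteins, SLC27A4 had 948, 1006 and 922 in sh-NC against 492, 477 and 737 in shRBM10 (-0.75 ± 0.25, edgeR adjusted p = 0.158). SLC27A5, a bile acid and very long chain acyl-CoA ligase, had 269, 661 and 282 in sh-NC against 145, 217 and 192 in shRBM10 (-1.13 ± 0.39, edgeR adjusted p = 0.166), and -0.66 without sh-NC replicate 2. With the GC trend removed it was at -0.78 with overlap. The other 3 overlapped, and the class median of -0.24 was 0.07 with the GC trend removed.

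The 5 rows that are not carriers had log2 fold changes from -0.41 to 0.79. SLC4A1AP was higher without overlap (0.79 ± 0.29, edgeR adjusted p = 0.172), and SLC2A4RG, a transcription factor, was lower without overlap (-0.41). With the GC trend removed SLC4A1AP was at 0.61, still without overlap, and SLC2A4RG at -0.05 with overlap. SLC9A3R1 and SLC9A3R2, scaffolds of the sodium and proton exchanger, were at -0.12 and -0.05. Of the 160 members, 41 overlap another tested gene on the opposite strand in GENCODE 29, among them SLC48A1 with HDAC7 and SLC7A6 with SLC7A6OS. Whether the counting used strand is not given in the sources used here, so reads of such pairs cannot be told apart.

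Just inside the mean count of 100 lay SLC25A16 (105.2), SLC9A2 (112.2) and SLC43A1 (119.7), with log2 fold changes of 0.16, 0.51 and -1.14. Just outside lay SLC25A35 (93.17), SLC44A4 (91.17) and SLC2A12 (86.67), with -0.10, 0.71 and 1.84. All 160 members passed edgeR's filter on low counts, and 7 members had a mean under 100 in 1 of the groups, so that they were admitted by the other group (SLC43A1 by sh-NC, and SLC1A3, SLC2A3, SLC9A2, SLC25A16, SLC25A30 and SLC41A2 by shRBM10). Another 21 carriers with other symbols (SLC35 with a letter other than A, SLC8B1, SLC18B1 and the SLCO genes) reached the same mean. Of these, 9 were above 0 and 12 below, with a median of -0.07. SLCO4A1, an organic anion transporter, had 496, 486 and 501 normalized counts in sh-NC against 194, 164 and 284 in shRBM10 (-1.21 ± 0.28, edgeR adjusted p = 0.134).

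Much of the spread between members went with GC content. Across the 160 members Pearson's r between GC content and log2 fold change was -0.68 (-0.58 across all genes), and it was -0.05 with the GC trend removed. The members share their libraries, so these coefficients only describe them. The 12 members past the unadjusted limits in the higher direction had 38.5% to 46.3% GC and the 4 in the lower direction 54.8% to 62.2%. All 16 kept their sign with the GC trend removed, 9 kept an unadjusted p under 0.05, and 0 kept an absolute log2 fold change over 1. On that scale 8.75% of the members were higher at an unadjusted p under 0.05 (8.62% of all genes) and 9.38% lower (9.72% of all genes), and 1 member was past both limits in each direction, SLC22A31 (1.04) and SLC25A32 (-1.13). Of the members without overlap, 16 of the 25 higher and 22 of the 32 lower kept it. Library C was the lowest shRBM10 library for 19 of the 25 and the highest for 29 of the 32. Whether the GC trend comes from the libraries or from the knockdown was not tested.

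**Figure D4:**
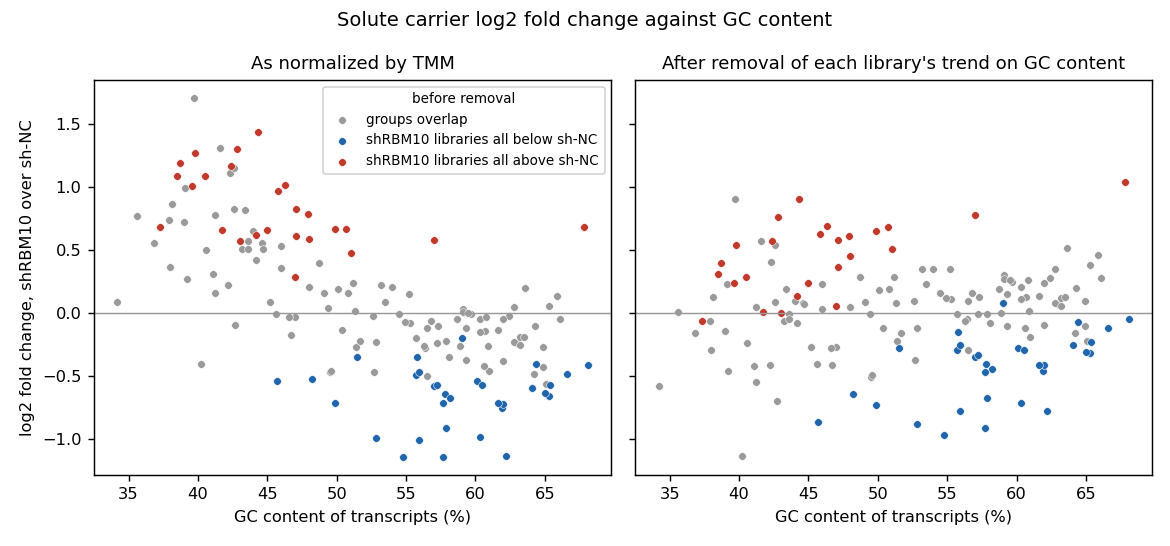
Log2 fold change of the 160 members against the GC content of their transcripts, as normalized by TMM (left) and after removal of the GC trend of each library (right). Colors give the overlap of the groups before the removal. The left cloud slopes down (r = -0.68), and the right one does not (r = -0.05), with SLC22A31 and SLC25A32 as the 2 members beyond an absolute value of 1.

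RBM10 regulates splicing, so the use of transcripts within each member was compared as a measure that the rule did not use. Of 128 members with at least 2 tested transcripts, 0 were called by edgeR's diffSpliceDGE with a Simes p per gene adjusted over all genes, against 0.0958% of the 8348 genes tested. At an unadjusted p under 0.05, 4 members (3.12%) passed, against 2.78% of genes. Without sh-NC replicate 2, 1 member was called, SLC11A2. SLC37A3 had the smallest p (0.000601, edgeR adjusted p = 0.143). Its transcript NM_001363373 had 0% of the gene's counts in all sh-NC replicates against 1.55%, 8.87% and 10.1% in libraries A, B and C, while NM_207113 held 100% in sh-NC against 97.3%, 88.2% and 87.9% in shRBM10. The shares of NM_001363373 rest on few counts, 12.6, 50.7 and 53 normalized counts in libraries A, B and C. NM_207113 had 322 to 787 over all 6 libraries. For SLC11A2 (edgeR adjusted p = 0.368), NM_001174125 had 0.292%, 2.74% and 0% in sh-NC against 16.3%, 8.47% and 13.1% in shRBM10. The main transcript of SLC25A39, NM_016016, held 85.6% to 87.8% in all libraries. Transcript counts are themselves estimates, since transcripts of a gene share most reads.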

How the data were processed

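RNA was sequenced by BGI-Tech from 3 sh-NC and 3 shRBM10 samples of PC9 cells. For genes and for RefSeq transcripts the authors deposited estimated counts beside FPKM, TPM and normalized counts. Only the deposited estimated counts were used, rounded to whole numbers. The 18 columns of other measures and the 8 columns of group means in each table were not used. The labels name build hg38, and the aligner, counter and annotation are not given in the sources used here. The labels name 2 library kits without assigning them to samples.

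In R 4.3.3 the 12620 genes that passed filterByExpr of edgeR 4.0.16 were scaled by TMM, and the quasi-likelihood test (glmQLFit, then glmQLFTest, limma 3.58.1) was run over all 6 libraries with no covariate. A standard error is the size of the log2 fold change over the root of its F statistic. The p-values were adjusted over all genes by the Benjamini-Hochberg method. DESeq2 1.42.0 was an alternative. The GC trend was the lowess curve (span 0.3) of each library's log2 count (pseudocount 2) on GC content, found for 12559 of the genes tested (99.5%), and entered the fit as offsets. Levels per kilobase use the median length of a gene's GENCODE 29 transcripts. The fits were checked on simulated counts, drawn independently with a fixed dispersion, no GC trend and no deviating replicate. That check therefore does not cover the differences between libraries seen here.

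Substrate classes come from a hand-written table of family numbers with exceptions. The members, classes and gene lists were chosen with earlier results of these data known. Genes named are RBM10, the 10 members with the smallest p, the extremes of each class, the most abundant members, textbook carriers, those next to the count limit and partners past the unadjusted limits. Other genes named were chosen after their values were seen. Some genes that this rule takes in are not reported here.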

Additional observations from a re-analysis of the deposited data

How the results depend on the processing

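With 3 libraries a group, edgeR's adjusted test called 2 genes in all and 0 members. Each library held at least 16606390 counts and each member a mean count of at least 100. No paired analysis was possible because the columns of shRBM10 libraries B and C carry no replicate number, so the groups share fewer than 2 numbers.

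The number of all genes called, 2, was 573 with DESeq2, 0 with library size only, 31 with no filter on low counts, 1 with the GC trend removed and 0 to 23 when libraries were left out 1 at a time (23 without sh-NC replicate 2). The number of members called, 0, was 11 with DESeq2. Members past the unadjusted limits, 12 higher and 4 lower, were 1 and 1 with the GC trend removed, 4 to 16 and 1 to 9 with each library left out, and 3 and 1 among the 85 members with a mean count of at least 500, while library size only left 2 lower. Members without overlap, 25 higher and 32 lower, were 27 to 49 and 32 to 69 with each library left out (with fewer libraries overlap is less frequent), 12 and 21 at a mean count of 500, and 18 lower with library size only. The median of all members, -0.03, was 0.09 with library size only and -0.21 to 0.03 with each library left out. Transcript usage was called for 0 members, and for 0 to 1 with each library left out.

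With the GC trend removed, class medians moved to 0.07 for fatty acids, 0.15 for rows that are not carriers, -0.02 for nucleosides, 0.13 for nucleotide sugars, 0.24 for monocarboxylates, 0.10 for other metals, 0.10 for sugars and 0.00 for zinc. With library size only, fatty acids were at -0.12 and organic ions at 0.63. When libraries were left out 1 at a time, the medians ranged from -0.42 to 0.00 for amino acids, -0.55 to -0.08 for fatty acids, -0.28 to 0.13 for rows that are not carriers, 0.39 to 0.74 for nucleotide sugars, -0.20 to 0.09 for monocarboxylates, 0.21 to 0.60 for organic ions, 0.03 to 0.35 for phosphate and sulfate, -0.41 to -0.08 for sugars and -0.35 to 0.02 for vitamins and choline.

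Of 55 named genes under 12 other settings, 627 of 660 values kept their direction and their side of the threshold, 15 passed the threshold only there (14 with DESeq2, and RBM10 without sh-NC replicate 2) and 18 turned sign. With the GC trend removed the sign turned for SLC29A3 (0.16), SLC26A11 (0.11), SLC25A6 (0.10), SLC25A35 (0.15), SLC25A16 (-0.55), SLC9A2 (-0.06), SLC30A1 (-0.29) and TXNIP (-0.33), and with library size only for SLC29A3 (0.09) and SLC25A35 (0.02). With each library left out, SLC29A3 ranged from -0.28 to 0.05, SLC26A11 from -0.42 to 0.02, SLC25A35 from -0.30 to 0.00, SLC25A16 from -0.07 to 0.29 and TXNIP from -0.10 to 0.29. Beyond the construction of each alternative, the cause was not tested.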
